A study of Mus musculus with 6 samples.

Results

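Genes that prepare DNA for copying, supply its building blocks or switch on these tasks were measured in liver RNA of mice lacking SIRT7, a nuclear NAD-dependent deacylase, and of wild-type mice. They were the 6 subunits of the Mcm2 to Mcm7 helicase, the ribonucleotide reductase genes Rrm1 and Rrm2, the sliding clamp gene Pcna and the transcription factor gene E2f1. They were taken by symbol, from probe sets annotated with exactly 1 gene, and each was represented by its brightest probe set over the 6 arrays. The 10 genes were 10 of 12393 genes with such a probe set, and all 10 were among the 8343 genes with a mean log2 value of at least 4, which were tested. Mcm5 and E2f1 each had 2 wild-type livers below 4. The wild-type mean of E2f1, 3.83, was under the filter, so this gene was tested only through its knockout livers, and its part in the counts below is no support for them.

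The study, whose title sets SIRT7 against MYC activity and tumorigenesis, hybridised 3 livers with the knock-out Sirt7 allele and 3 livers with the wild-type allele, each to 1 Affymetrix array. The labels state 1 treatment for all samples and name no other difference between the groups. The sources used here do not give strain, age, sex, diet or how the allele was made. Nor do they tie each liver of a group to a mouse of its own, so the p-values reflect only how far these samples spread, part of which may be technical.

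In dividing cells the Mcm2 to Mcm7 proteins form a ring that is loaded onto replication origins before S phase, a step called licensing, and that later unwinds the DNA. Ribonucleotide reductase turns ribonucleotides into deoxyribonucleotides, and PCNA holds DNA polymerases on the template. Most hepatocytes of a resting adult liver are outside the cell cycle and keep these genes low. E2F1 belongs to a family of factors, held in check by the retinoblastoma protein, whose known targets include genes of all these classes.

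Promoter sequence is shown because the 10 genes share E2F as a known regulator. RefSeq windows of build GRCm38.p6, running from 250 bases before to 50 after a gene's start, were matched by symbol for 9 of the 10 genes, with 2 windows for Mcm7. Mcm4 was not among them. They were searched on both strands for 4 forms of the E2F consensus, TTTCCCGC, TTTCGCGC, TTTGCCGC and TTTGGCGC, matches of which may overlap each other. Such a word was in the windows of 4 genes, Mcm3, Mcm5, Mcm6 and Mcm7, and in 744 of all 32851 windows (2.26%), or in a window of 4.90% of the tested genes that have one. The windows of Mcm2, Rrm1, Rrm2, Pcna and E2f1 held none, which says only that these letters are not in them. The first part of the E2f1 window can be read as protein-coding sequence without a stop. That window may therefore lie within the gene and not hold its promoter.

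The windows of the 4 genes with a word are printed with those of Mcm2 and Pcna, the genes with the smallest differences below. Rrm1, Rrm2 and E2f1 also lacked a word and are not printed, and they differed by 0.997, 0.93 and 1.37. The printed set is thus no comparison of genes with and without a word. Capitals mark the E2F words. The windows lie at chr1:128359656-128359955 on the minus strand (Mcm6), chr8:75109259-75109558 on the plus strand (Mcm5), chr1:20820263-20820562 on the minus strand (Mcm3) and chr5:138171834-138172133 on the minus strand (Mcm7, the upstream window). The printed windows without a word lie at chr6:88898731-88899030 on the minus strand (Mcm2) and chr2:132253131-132253430 on the minus strand (Pcna). Each reads 5′ to 3′ toward the gene.
Mcm6: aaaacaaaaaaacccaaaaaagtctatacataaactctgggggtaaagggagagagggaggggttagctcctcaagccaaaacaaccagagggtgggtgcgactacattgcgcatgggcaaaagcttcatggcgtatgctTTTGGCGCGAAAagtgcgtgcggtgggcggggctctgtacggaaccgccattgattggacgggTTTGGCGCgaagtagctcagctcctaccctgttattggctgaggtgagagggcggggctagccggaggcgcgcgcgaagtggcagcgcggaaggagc
Mcm5: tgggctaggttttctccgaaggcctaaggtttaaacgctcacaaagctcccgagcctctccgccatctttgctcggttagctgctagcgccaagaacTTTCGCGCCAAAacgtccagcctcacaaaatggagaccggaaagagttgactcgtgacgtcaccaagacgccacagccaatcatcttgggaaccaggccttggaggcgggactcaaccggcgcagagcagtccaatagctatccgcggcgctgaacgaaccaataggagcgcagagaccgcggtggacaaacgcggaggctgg
Mcm3: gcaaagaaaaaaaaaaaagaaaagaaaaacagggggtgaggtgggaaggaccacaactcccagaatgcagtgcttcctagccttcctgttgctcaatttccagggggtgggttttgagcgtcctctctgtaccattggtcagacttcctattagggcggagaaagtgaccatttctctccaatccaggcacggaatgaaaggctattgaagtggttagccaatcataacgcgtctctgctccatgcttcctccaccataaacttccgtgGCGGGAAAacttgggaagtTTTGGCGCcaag
Mcm7: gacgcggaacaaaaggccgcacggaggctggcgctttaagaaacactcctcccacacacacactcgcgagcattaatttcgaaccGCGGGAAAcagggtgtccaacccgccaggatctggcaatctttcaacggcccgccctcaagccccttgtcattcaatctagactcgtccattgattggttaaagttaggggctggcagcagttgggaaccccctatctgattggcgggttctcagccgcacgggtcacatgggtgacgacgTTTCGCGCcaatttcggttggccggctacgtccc
Mcm2: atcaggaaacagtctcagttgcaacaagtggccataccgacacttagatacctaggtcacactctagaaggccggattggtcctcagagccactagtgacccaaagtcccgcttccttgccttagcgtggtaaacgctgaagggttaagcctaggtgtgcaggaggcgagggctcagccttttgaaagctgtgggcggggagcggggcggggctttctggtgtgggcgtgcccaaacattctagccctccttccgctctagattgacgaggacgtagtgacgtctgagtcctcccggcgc
Pcna: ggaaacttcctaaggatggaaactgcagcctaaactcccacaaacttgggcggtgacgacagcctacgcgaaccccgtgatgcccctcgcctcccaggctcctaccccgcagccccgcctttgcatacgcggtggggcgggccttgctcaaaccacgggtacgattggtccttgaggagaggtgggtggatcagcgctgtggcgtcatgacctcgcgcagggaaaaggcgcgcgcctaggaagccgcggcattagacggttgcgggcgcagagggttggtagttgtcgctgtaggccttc

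Mcm6 had 3 E2F words, 2 of them overlapping between positions -110 and -99 on opposite strands and the other at -47 to -40. In Mcm5 a like pair of overlapping words covered -153 to -142. The words of Mcm3 lay at 20 to 27 and 39 to 46 after the start, and those of Mcm7 at -165 to -158 and at 17 to 24. The second Mcm7 window held none. A CCAAT box (CCAAT, either strand) was in windows of 8 of the 9 genes, against 43.1% of the tested genes with a window and 37.4% of all windows. The exception was E2f1, whose window may not hold its promoter. A GC box (GGGCGG, either strand) was in windows of 7 of the 9, close to its share of 68.7% of the tested genes with a window (35.7% of all windows). The counts of both boxes include the E2f1 window. These matches are descriptions of the letters and not evidence of binding.

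Sirt7 itself, the check of the labels, was at 2.38, 3.10 and 2.86 in knockout livers, against 9.85, 9.80 and 9.57 in wild-type livers, and fell by 6.96 log2 units (SE 0.23, limma adjusted p = 3.99e-06). Whether its probe set lies in the deleted part is not known here. All 11 hepatocyte markers found on the array passed the filter, and their mean log2 level was 12.28 to 12.73 in knockout and 12.47 to 12.74 in wild-type livers. Wild-type replicate 3 was closer to the knockout arrays than to its own group. Over the tested genes its correlation was 0.972 to 0.979 with the knockout arrays and 0.968 or 0.971 with the other wild-type arrays. The main counts below are therefore also given without it. Leaving out a control liver picked for its likeness to the knockout livers can by itself widen the differences. Results without it are therefore descriptions and no added support for a difference. Correlations within the groups ran from 0.962 to 0.984, so a pair that does not include this array agreed less. Leaving out each of the other livers is described further below.

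All 10 genes had a higher mean in knockout than in wild-type livers, by log2 differences of 0.033 (Pcna) to 1.65 (Mcm6). Their median was 0.95, a 1.93-fold difference, beside -0.032 over all tested genes, of which 45.4% had a positive difference. No gene of the 10 was called by limma at a Benjamini-Hochberg adjusted p under 0.05 over all genes (0 of 10, adjusted p 0.544 to 0.98), where 0.024% of the tested genes were called. At an unadjusted p under 0.05, 7 of the 10 were higher, against 3.04% of the tested genes, and 0 of the 10 were lower, against 3.42%. The same 7, Mcm3, Mcm5, Mcm6, Mcm7, Rrm1, Rrm2 and E2f1, had every knockout value above every wild-type value. That separation upward was found in 4.27% of the tested genes, and the opposite one, found in 5.48%, in 0 of the 10. The 10 genes were chosen with earlier results of these data known. Their counts and median are therefore descriptions and no independent support for a difference. With 3 livers against 3 an exact 2-sided permutation test cannot go below p = 0.1, the value all 7 of these genes had. The array measures RNA of whole liver, so more cells holding a transcript and more of it per cell cannot be told apart.

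**Figure D1:**
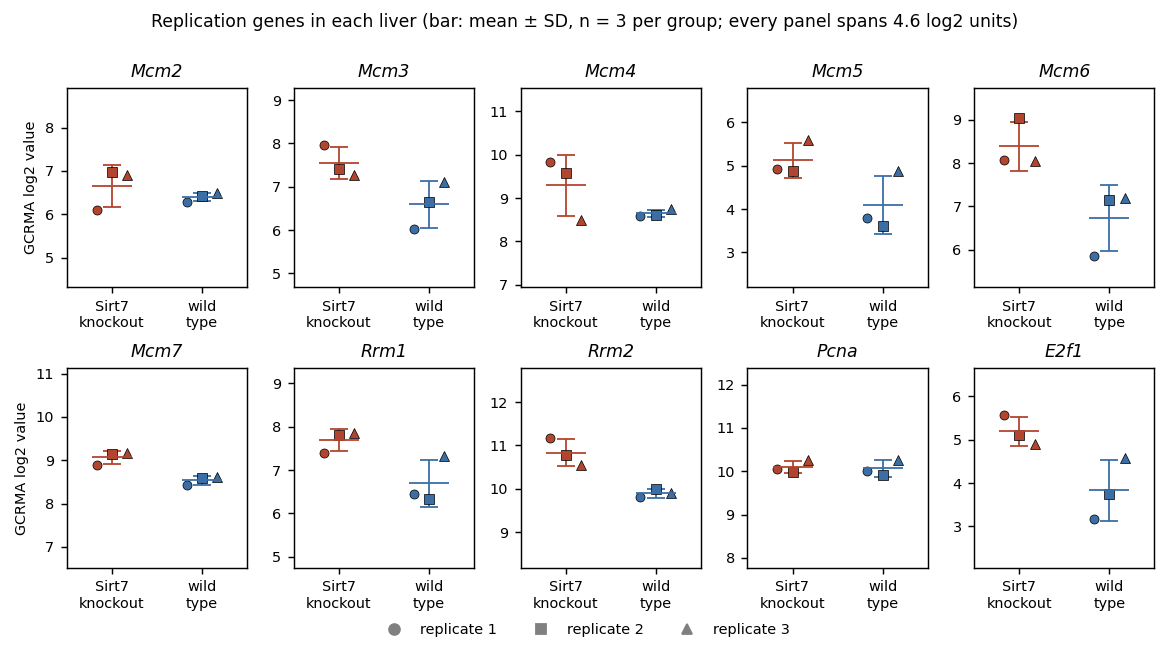
GCRMA log2 value of each of the 10 genes (vertical axis) in Sirt7 knockout livers (red, left) and wild-type livers (blue, right), with mean ± SD over 3 livers; marker shapes give the replicate number. The groups are apart in 7 panels and overlap in those of Mcm2, Mcm4 and Pcna.

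**Figure D2:**
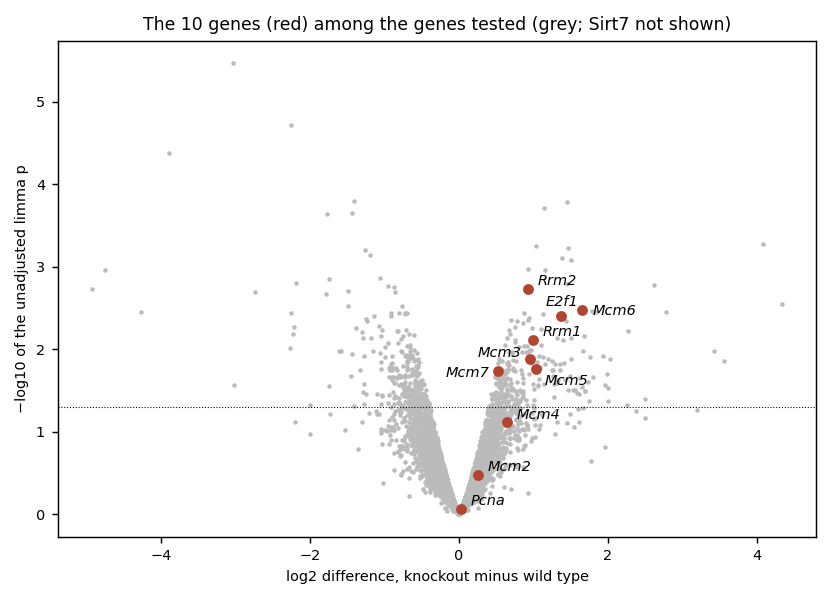
Log2 difference, knockout minus wild type (horizontal axis), against the −log10 of limma's unadjusted p-value (vertical axis) for the tested genes (grey, Sirt7 not shown) and the replication genes (red), with a dotted line at 0.05. Of the 10 replication genes, 7 lie above the line and all lie to the right of 0.

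Among the helicase subunits Mcm6 had the highest difference. Its values were 8.08, 9.04 and 8.04 in knockout livers, against 5.85, 7.15 and 7.20 in wild-type livers. The lowest knockout liver was above the highest wild-type liver, and wild-type replicate 1 was lowest. The mean was 8.39 ± 0.56 in knockout and 6.74 ± 0.77 in wild-type livers (SD, n = 3 each), a log2 difference of 1.65 (95% interval 0.71 to 2.58, limma adjusted p = 0.652). That is 3.14-fold. A second Mcm6 probe set differed by 1.60, also with no overlap, at 7.19, 7.82 and 7.36 in knockout and 4.89, 5.72 and 6.96 in wild-type livers. On that probe set wild-type replicate 3 came close to the knockout livers.

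Mcm5, another subunit, was near the lower end of the scale, at 4.92, 4.87 and 5.59 in knockout livers, against 3.80, 3.62 and 4.87 in wild-type livers. Wild-type replicate 3 and knockout replicate 2 were equal to 2 decimals, so the groups only just failed to overlap. The difference was 1.03 (95% interval 0.23 to 1.83, 2.04-fold, limma adjusted p = 0.746), and this gene had 1 probe set.

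Mcm3 was at 7.96, 7.41 and 7.28 in knockout livers, against 6.02, 6.65 and 7.11 in wild-type livers, with wild-type replicate 3 closest to the knockout values. It differed by 0.96 (95% interval 0.26 to 1.66, 1.94-fold, limma adjusted p = 0.746). Its 4 other probe sets differed by 0.79, 0.54, 0.58 and 0.37, and the groups were apart on 1 of them.

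Mcm7 was at 8.89, 9.15 and 9.16 in knockout livers, against 8.42, 8.58 and 8.61 in wild-type livers. Both groups were tight (SD 0.15 and 0.10), and wild-type replicate 3 lay with the other wild-type livers. The difference was 0.53 (95% interval 0.11 to 0.94, 1.44-fold, limma adjusted p = 0.756). The 3 other probe sets of Mcm7 differed by 0.18, 0.33 and 0.41, each with overlapping groups. On the probe set with 0.33, the knockout livers were at 7.47, 7.66 and 7.96 and the wild-type livers at 7.09, 7.11 and 7.92, so the livers were ordered differently on different probe sets of this gene.

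The remaining subunits overlapped between the groups. Mcm4 was at 9.83, 9.57 and 8.50 in knockout livers, against 8.58, 8.62 and 8.74 in wild-type livers. Knockout replicate 3 was below every wild-type liver and the other knockout livers were above them, and the difference was 0.65 (95% interval -0.09 to 1.39). On the other Mcm4 probe set, at 6.78, 6.96 and 6.62 in knockout and 5.98, 6.86 and 6.75 in wild-type livers, the difference was 0.26. Mcm2 was at 6.10, 6.97 and 6.91 in knockout livers, against 6.29, 6.42 and 6.48 in wild-type livers, and here knockout replicate 1 was the lowest of all 6. It differed by 0.26 (95% interval -0.33 to 0.85) and by 0.49 on its other probe set. The 6 subunits thus had differences of 0.26 to 1.65 with a median of 0.81, and their intervals overlapped one another. Whether any subunit differed from another in its response was not tested.

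E2f1, which encodes an activator of S phase genes, was at 5.57, 5.11 and 4.90 in knockout livers, against 3.17, 3.75 and 4.57 in wild-type livers. Its knockout mean was 5.20 ± 0.34 and its wild-type mean 3.83 ± 0.71 (SD, n = 3 each), and wild-type replicate 3 was the highest of its group. The difference was 1.37 (95% interval 0.57 to 2.17, 2.58-fold, limma adjusted p = 0.655). A dimmer E2f1 probe set, with a mean of 3.59, lay at 3.65, 3.69 and 3.70 in knockout and 3.27, 3.37 and 3.87 in wild-type livers. It differed by 0.18, with wild-type replicate 3 above all knockout livers, and the mean of both probe sets differed by 0.77.

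Rrm2, the small subunit of ribonucleotide reductase that is limiting in S phase, had the smallest p of the 10. It was at 11.16, 10.78 and 10.55 in knockout livers, against 9.80, 10 and 9.89 in wild-type livers, where the 3 values were close together and replicate 3 did not stand out. The difference was 0.93 (95% interval 0.45 to 1.41, 1.91-fold, limma adjusted p = 0.544). A dim probe set, with a mean of 4.22, differed by 0.89, also with no overlap. The other, with a mean of 6.6, differed by 0.84 (95% interval -0.56 to 2.24) and placed the livers in another order, at 6.01, 7.36 and 7.70 in knockout and 5.57, 5.52 and 7.45 in wild-type livers. On it wild-type replicate 3 exceeded 2 of the 3 knockout livers, and knockout replicate 1, the highest liver on the brightest probe set, was the lowest knockout liver.

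Rrm1, the large catalytic subunit, was at 7.40, 7.82 and 7.85 in knockout livers, against 6.44, 6.33 and 7.32 in wild-type livers. Wild-type replicate 3 lay just below the lowest knockout liver and apart from the other wild-type livers. The difference was 0.997 (95% interval 0.34 to 1.65, limma adjusted p = 0.729), and 0.79 on a dim second probe set whose groups overlapped.

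Pcna did not share the pattern. It was at 10.05, 9.99 and 10.25 in knockout livers, against 10.01, 9.91 and 10.27 in wild-type livers, so that each group had its highest value in replicate 3. The difference was 0.033 (95% interval -0.40 to 0.47, limma adjusted p = 0.98), which holds changes of 0.76-fold to 1.38-fold. This interval did not overlap that of Mcm6 (0.71 to 2.58) or that of E2f1 (0.57 to 2.17); the difference between genes was not tested. Pcna was measured by 1 probe set.

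**Figure D3:**
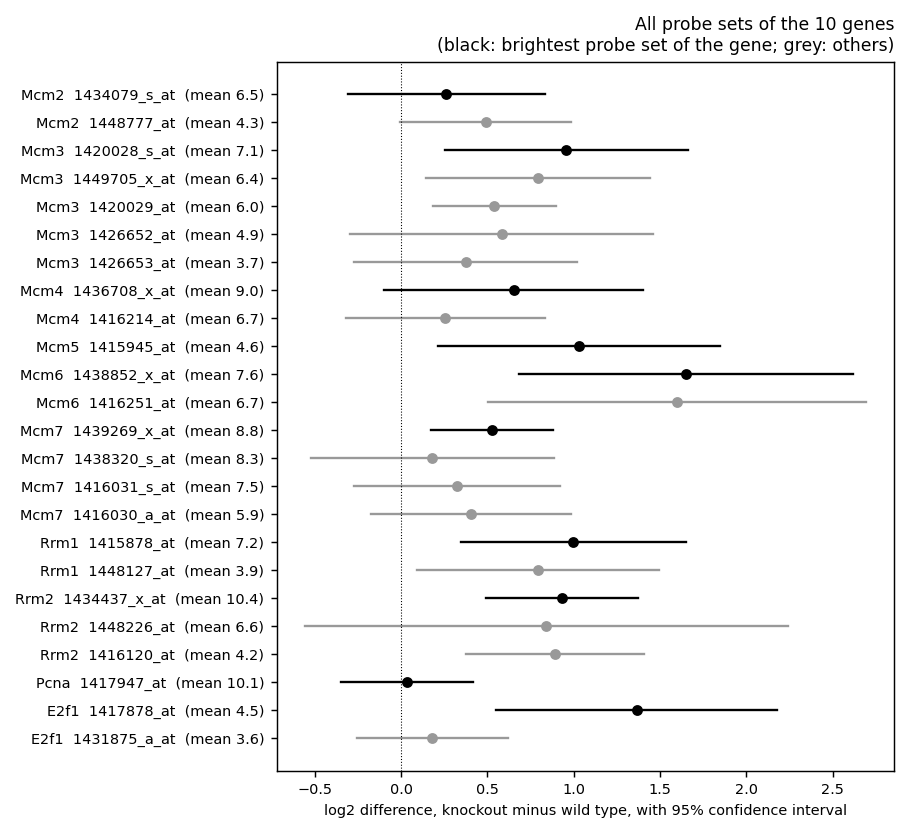
Log2 difference, knockout minus wild type, with its 95% confidence interval (horizontal axis) for all 24 probe sets of the 10 genes (rows, with their mean log2 value over 6 livers). Points of all 24 lie to the right of 0, from 0.033 to 1.65; black marks the brightest probe set of a gene and grey the others, of which 5 of 14 have an interval clear of 0. Intervals come from the fit over all probe sets and so differ slightly from those of the fit over genes in the text.

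Of the 24 probe sets, 14 were not the brightest of their gene. All 14 had a positive difference, 5 at an unadjusted p under 0.05, and 3 with groups that did not overlap. They share RNA samples, and in part target sequence, with the brightest ones and are no independent measurement. In 6 genes (Mcm2, Mcm3, Mcm4, Mcm6, Mcm7 and Rrm2) the brightest probe set carries an x or s mark in its name, used by the manufacturer for probes that can match other transcripts too. With the brightest probe set free of x, s and a marks in its place, an alternative chosen after seeing the data, 9 genes had one, their median difference was 0.84, and 5 of the 9 had an unadjusted p under 0.05. Shares over all probe sets or genes were not taken for the counts of this paragraph, so they have no background beside them.

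The livers differed within their groups as well as between them. As a deviation from each gene's own mean over 6 livers, the 10 genes averaged 0.43, 0.50 and 0.33 in the knockout livers and -0.73, -0.47 and -0.06 in wild-type replicates 1, 2 and 3. In 9 of the 10 genes, all but Rrm2, wild-type replicate 3 was the highest of its group. It deviated by 0.25 in Mcm5, where the other wild-type livers were at -0.81 and -0.99, and by -0.19 in Mcm7, where they were at -0.38 and -0.22. The lowest of the 6 livers was wild-type replicate 1 or 2 in 8 genes, while the highest was knockout replicate 1 in 4, replicate 2 in 2 and replicate 3 in 3.

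**Figure D4:**
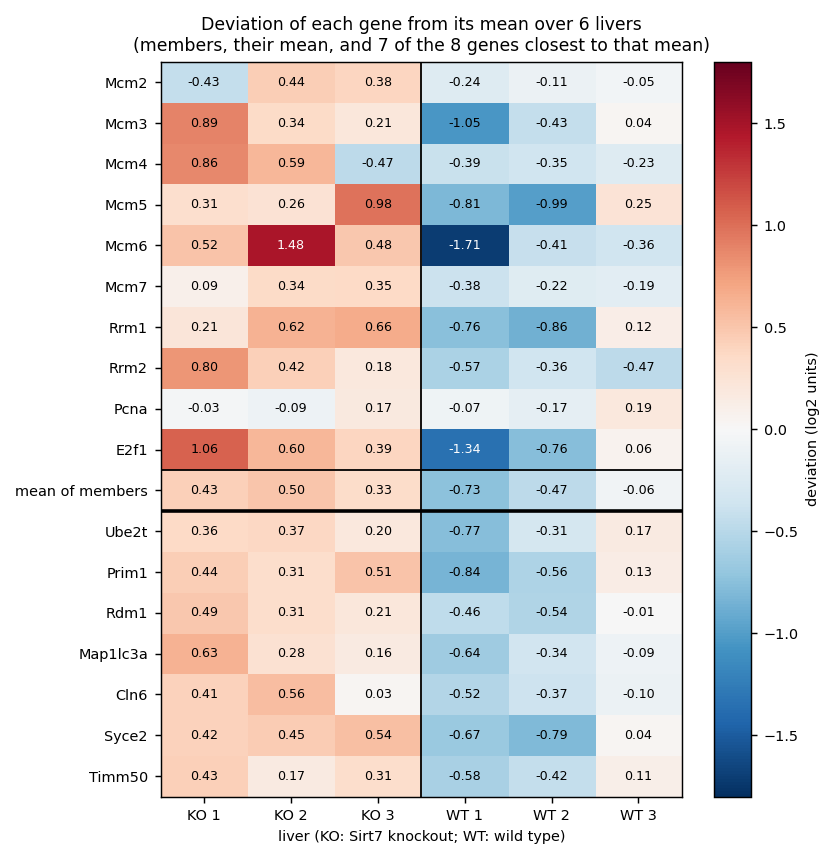
Deviation in log2 units (colour and printed value) of each gene (rows) from its mean over 6 livers, in knockout livers (KO, left) and wild-type livers (WT, right). The upper block holds the 10 genes, the middle row their mean and the lower block 7 of the 8 other genes closest to that mean. In the row of means wild-type replicate 3 is at -0.06, between the other wild-type livers and the knockout livers.

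Without wild-type replicate 3 the median difference of the 10 genes was 1.07 (-0.040 over all tested genes), with a range of 0.14 (Pcna) to 1.88 (Mcm6). Limma then called 0.36% of the tested genes as higher in knockout livers and 0 of the 10. The lowest adjusted p-values of the 10 were 0.0592 for E2f1 (1.74), 0.0667 for Rrm1 (1.31) and 0.0961 for Mcm5 (1.41). At an unadjusted p under 0.05, 7 of the 10 were higher, against 6.11% of the tested genes. Leaving out each liver in turn gave 0 called genes of the 10 in every case and 5 to 8 at an unadjusted p under 0.05. Apart from the fit without wild-type replicate 3, the share over all tested genes at that p was not taken. These counts therefore have no background beside them. The Mcm6 difference ranged from 1.21 (without wild-type replicate 1) to 1.88, and that of Mcm2 from 0.11 (without knockout replicate 2) to 0.54 (without knockout replicate 1). Mcm4 ranged from 0.39 without knockout replicate 1 to 1.05 without knockout replicate 3.

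**Figure D5:**
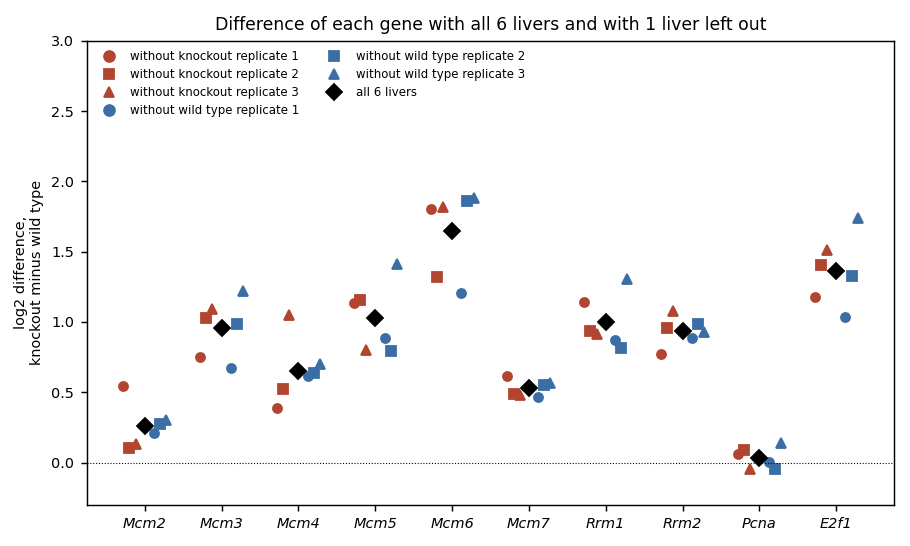
Log2 difference, knockout minus wild type (vertical axis), of each of the 10 genes with all 6 livers (black diamonds) and without 1 knockout liver (red) or 1 wild-type liver (blue). All values but 2 of Pcna (-0.046 and -0.043) are above 0.

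Other genes of the same processes were counted from lists chosen by function, also with earlier results of these data known. Of origin licensing and helicase loading genes outside the 10, 12 were tested, 5 had a positive difference and the median was -0.019. At an unadjusted p under 0.05, 1 of 12 was higher and 1 lower, beside 3.04% and 3.42% of all tested genes. The higher count was 0 without wild-type replicate 1 or 2 and with an ordinary 2-sample test. It was 3 without wild-type replicate 3 (median -0.056, beside 6.11% of all tested genes) and 4 with array weights. For this list and those below, the share over all tested genes was not taken in the other alternatives. List counts can move with that share, and array weights called 1748 genes in all. The higher one was Dbf4, the activating partner of the CDC7 kinase that triggers loaded helicases (0.87, SE 0.32), at 6.82, 6.89 and 7.37 in knockout and 5.81, 5.78 and 6.88 in wild-type livers. The lower one was the origin recognition subunit Orc2 (-0.62, SE 0.27), at -0.16 with the mean of its probe sets and -0.39 without wild-type replicate 1. Orc5, another subunit of the origin recognition complex, differed by 0.37, and the licensing inhibitor gene Gmnn by 0.46.

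Of 33 tested genes of the replication fork, 7 were higher and 0 lower at an unadjusted p under 0.05, and the groups were apart in 7, all higher, beside 3.04% higher and 4.27% apart upward among all tested genes. The higher count was 4 without wild-type replicate 2, 8 without wild-type replicate 3 (median 0.208) and 11 with array weights. The median of the list was 0.083, with 23 positive differences. The 4 with the smallest p were Uhrf1, which helps copy DNA methylation (1.79, SE 0.45), the RNase H2 subunit Rnaseh2c (0.69, SE 0.19), the histone chaperone Asf1b (0.97, SE 0.30) and the primase subunit Prim1 (0.84, SE 0.26). Uhrf1 was at 7.61, 7.53 and 8.09 in knockout livers, against 5.47, 5.27 and 7.12 in wild-type livers, so wild-type replicate 3 was nearer to the knockout livers than to its own group. It was called without that liver (2.38, limma adjusted p = 0.00908) and not with it (adjusted p = 0.652). Averaging all probe sets of a gene gave 0.95 for Uhrf1 and 0.51 for Prim1.

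Of 14 tested genes of deoxynucleotide supply, 1 was higher and 0 lower at an unadjusted p under 0.05, with a median of 0.031, beside 3.04% higher among all tested genes. The higher count was 0 without knockout replicate 1, wild-type replicate 1 or wild-type replicate 2, and with the replicate block or a trended prior. It was 2 without knockout replicate 3 and 4 with array weights. Without wild-type replicate 3 it was 3 (median 0.073), beside 6.11% of all tested genes. With all 6 livers the higher gene was Dut, whose product keeps uracil out of DNA by removing dUTP (0.44, SE 0.18). The thymidine kinase gene Tk1 differed by 0.66 (SE 0.33), at 8.79, 8.18 and 8.68 in knockout and 7.46, 7.62 and 8.61 in wild-type livers, again with wild-type replicate 3 among the knockout values. Its mitochondrial relative Tk2 differed by -0.39 and the folate enzyme gene Mthfd1 by -0.35. De novo purine and pyrimidine synthesis, with 13 tested genes, had a median of 0.028, with 1 higher (Ctps2, a CTP synthase, 0.55, SE 0.24, but 0.23 when its probe sets were averaged) and 0 lower. Over all tested genes 3.04% were higher. The higher count of this list was 0 without knockout replicate 2 or 3 or wild-type replicate 1 or 2. It was also 0 with each probe set on its own, quantile normalization, an ordinary 2-sample test or a trended prior. It was 3 without wild-type replicate 3 (median 0.095, beside 6.11% of all tested genes) and 5 with array weights. Also named by the rule were Adsl (0.44) and Prps2 (0.33), both of purine synthesis, and Cad (-0.80), the enzyme of the first steps of pyrimidine synthesis. Cad was at 5.63, 7.35 and 7.45 in knockout and 7.77, 8.18 and 6.89 in wild-type livers, and its difference was -0.21 without knockout replicate 1 and -0.52 without wild-type replicate 2.

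Of 20 tested genes of the E2F and RB families and their regulators, 0 reached an unadjusted p under 0.05 in limma, with 15 positive differences, a median of 0.19 and 0 called. Among all tested genes 3.04% were higher and 3.42% lower at that p. The count of higher genes, 0, became 1 without knockout replicate 1, with no filter, with the mean of probe sets and with an ordinary 2-sample test. It became 3 without knockout replicate 3 and 7 with array weights. Without wild-type replicate 3 it was 2 (median 0.283), beside 6.11% of all tested genes. The smallest p belonged to the CDK inhibitor gene Cdkn2c (0.73, SE 0.33), followed by the D cyclins Ccnd3 (0.35) and Ccnd2 (0.46) and the RB relative Rbl1 (0.36). Limma called 0 genes of the 5 lists over all genes.

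Among the 8 genes outside the 10 whose profile over the 6 arrays was closest to the mean profile of the 10 were Ube2t, Prim1, Rdm1, Map1lc3a, Cln6, Syce2 and Timm50. The root mean square difference of these 7 from that profile was 0.142 to 0.166 log2 units, beside a median of 0.542 over all tested genes. Among the 10 themselves it was 0.237 for Mcm7, 0.245 for Rrm1 and 0.249 for Mcm3 and Rrm2, and 0.581 for Mcm6, whose spread was wider. Ube2t encodes a ubiquitin-conjugating enzyme of the Fanconi anaemia repair pathway. Map1lc3a encodes an autophagosome protein and Timm50 a subunit of the mitochondrial import machinery. These genes were picked for their likeness, so their differences are descriptions.

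Markers of other cells that a liver sample can hold varied between livers too. The mean log2 level of 10 Kupffer cell and macrophage markers was 8.65 to 9.04 in knockout livers and 8.55 to 8.62 in wild-type livers. This list lay higher in every knockout liver than in any wild-type liver. Knockout replicates 2 and 3, at 8.66 and 8.65, were only just above the highest wild-type value. Of its markers 2 of 10, C1qa and Cd68, were higher at an unadjusted limma p under 0.05, beside 3.04% of all tested genes, and 0 were under the filter. Csf1r and Clec4f had lower means in knockout livers. Csf1r was at 9.38, 9.68 and 10.6 in knockout and 10.64, 10.69 and 10.21 in wild-type livers. For 7 neutrophil markers the mean level was 4.21 to 5.44 in knockout and 4.35 to 4.64 in wild-type livers, with 4 of 7 under the filter, among them Mpo and Elane. Knockout replicates 2 and 3, at 5.44 and 5.32, were above every wild-type liver, and knockout replicate 1 was below them all. The 3 tested markers, S100a8, S100a9 and Camp, had replicates 2 and 3 placed likewise, and Elane did not. Their median difference was 0.685, with 0 at an unadjusted limma p under 0.05. For 10 erythroid and blood progenitor markers it was 4.55 to 5.07 in knockout and 4.67 to 4.80 in wild-type livers, with 4 under the filter. Of the 6 tested, 1 was higher and 0 lower at an unadjusted limma p under 0.05, beside 3.04% and 3.42% of all tested genes. The higher one was Slc4a1, at 5.95, 7.02 and 6.42 in knockout and 5.36, 4.39 and 5.69 in wild-type livers. Klf1 had a lower mean in knockout livers, at 4.65, 5.44 and 6 against 7.07, 6.44 and 5.39 in wild-type livers. For 9 lymphocyte markers the mean level was 4.40 to 5.90 in knockout and 4.86 to 5.21 in wild-type livers, with 2 under the filter. Knockout replicate 2 was highest in the neutrophil, erythroid and lymphocyte lists and knockout replicate 1 lowest in all 3. Endothelial (7.15 to 7.59 in knockout, 7.06 to 7.36 in wild-type livers), stellate cell (7.68 to 7.93 and 7.73 to 8.10) and cholangiocyte lists (3.82 to 4.04 and 4.0 to 4.19) overlapped between the groups. At an unadjusted limma p under 0.05, 1 of 8 tested stellate cell markers and 1 of 3 tested cholangiocyte markers were lower. In both lists 0 were higher, and 3.42% of all tested genes were lower. The part of any of these cells in the differences of the 10 genes was not tested.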

How the data were processed

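Liver RNA of 3 knockout and 3 wild-type samples was measured on 1-colour Affymetrix arrays. The deposited values are log2 probe set values that the authors made, with GCRMA 2.20.0 and R 2.11.1 named in the submitters' processing notes. The sources used here do not state its settings, and the scale was read from the range, 0.841 to 13.969. GCRMA models background from probe sequence. No detection call comes with the values, and array number limits the precision.

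Of 22626 probe sets, 20380 had 1 symbol, 691 several and 1555 none or no entry in the supplied annotation. Each gene was represented by its brightest probe set, genes with a mean under 4 were left out, and both groups were fitted in limma 3.58.1 under R 4.3.3 (lmFit, eBayes, 2-sided), Benjamini-Hochberg adjusted over 8343 genes. Single probe sets were tested in a fit over all 20380 with 1 symbol. Residual degrees of freedom were 4. The script was checked on simulated data with shifts larger than any difference of the 10 genes. That check does not show how well differences of their size are found. Samples were grouped by allele and title. The members and lists were chosen with earlier results of these data known. The rule for named genes took Sirt7, the 10 members, the 4 smallest p-values of each list, and the 8 nearest profiles, 1 of which is not reported here. Alternatives concerned the filter, probe set choice, normalization, array weights, variance prior, replicate block and leaving out each array.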

Additional observations from a re-analysis of the deposited data

How the results depend on the processing

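All 10 genes kept a positive difference in the 17 alternatives, apart from Pcna, which turned to -0.046 without knockout replicate 3 and -0.043 without wild-type replicate 2 (0.137 at most, without wild-type replicate 3). The filter at a mean of 6 left 8 of the 10 genes and the unmarked probe sets 9. The median of the genes ranged from 0.71 (mean of probe sets) to 0.947 (quantile normalization or median centring), and from 0.76 to 1.07 without 1 array, against 0.946. With array weights limma called 8 of the 10 genes, all but Mcm2 and Pcna, and 1748 genes in all; the weights were 0.514, 6.12 and 0.31 for knockout replicates 1 to 3 and 0.887, 2.54 and 0.455 for wild-type replicates 1 to 3, so 1 array dominated the knockout mean, and the cause was not tested. In no other alternative was a gene of the 10 called (0). The number of all genes called was 2. It was 1 with the mean of probe sets, 3 with the unmarked probe sets and 0 with an ordinary 2-sample test. It was 4 with a trended prior and 1 to 38 without 1 array, and the cause was not tested. The replicate numbers did not pair the livers (correlations of deviations -0.089, -0.091 and -0.194). With the replicate block 0 of the 10 genes were called, 7 had an unadjusted p under 0.05, and the median of the 10 was 0.946. The share of all tested genes at that p was not taken there. Of the other named genes, 20 values passed the threshold only in an alternative, 19 of them with array weights, 33 list counts moved by over 1.5 times, and Sirt7 missed the threshold with the ordinary test (adjusted p = 0.0592). Each value rests on 3 arrays per group, and E2f1 and Mcm5 have the lowest mean log2 values of the 10 genes.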

Other observations

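Among the 6823 tested genes with a RefSeq promoter window, 334 (4.90%) held at least 1 of the 4 E2F words. At an unadjusted p under 0.05, 23 of these (6.89%) were higher in knockout livers, against 180 of the 6489 without a word (2.77%). Leaving out the 4 genes of the report among them, it was 19 of 330 (5.76%). The median log2 difference was -0.001 with a word and -0.034 without one, so most genes with a word did not differ in the way of Mcm6 or Mcm5. With a CCAAT box it was 3.36% of 2943 genes, against 2.68% of 3880 without, and with a GC box 2.88% of 4685, against 3.18% of 2138 without. These shares are descriptions with no test, and genes with more than 1 window had more chances to hold a word.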
